A study of Mus musculus with 18 samples.

Results

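The transcripts described here are those of 31 mouse genes for cholesterol synthesis, its feedback control, sterol transport, and sterol efflux and storage. They were taken by symbol from a table of 27179 genes made by RNA sequencing of bone marrow-derived mesenchymal stem cells (MSCs), plastic-adherent stromal cells cultured from marrow. All 31 were in the table, and all 31 passed the limit set for testing, a mean of 10 normalized counts over the 18 libraries. The libraries fell into 3 groups of 6. Young MSCs came from C57BL6 mice aged 6 weeks and old MSCs from C57BL6 mice aged 18 to 24 months, and both were harvested after 7 days without treatment. Rejuvenated old MSCs were old MSCs kept for the same 7 days in wells that also held young MSCs, at 100000 old cells per well, with a Transwell membrane of 0.4 µm pores between both layers. All cells had been expanded in medium with fetal bovine serum. The number of donor mice behind the 6 libraries of a group was not given, so that p-values measure only the spread between these libraries. Co-cultures of old with old MSCs were not used here, so that the presence of another cell layer and its donors' age cannot be told apart.

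Cells make cholesterol from acetyl-CoA by way of mevalonate, farnesyl diphosphate, squalene and lanosterol. When sterol in the endoplasmic reticulum is scarce, SCAP escorts the membrane-bound transcription factors SREBP1 and SREBP2 to the Golgi, where proteases free their active part, which then switches on synthesis and uptake genes; INSIG1 and INSIG2 hold the complex back when sterol is plentiful. When oxysterols accumulate, the nuclear receptors LXRα and LXRβ switch on genes for efflux, among them the transporters ABCA1 and ABCG1 and the carrier apolipoprotein E, while SOAT1 stores surplus cholesterol as esters.

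The libraries held 22936251 to 25648769 reads on genes in young, 24965971 to 29559194 in old and 26018046 to 29155223 in rejuvenated old MSCs. The young libraries lacked Y-linked transcripts, although the study's methods name male donors. The Y-linked gene Uty had 0 reads in all 6 of them against 570 to 719 normalized counts in old MSCs, and Ddx3y had at most 2.06 against 1591 to 1871. Xist, the RNA of the inactive X chromosome in female cells, was low in both, at 21.2 to 41.2 normalized counts in young and 1.97 to 14.4 in old MSCs. Other donors and a loss of the Y chromosome in young MSCs cannot be told apart from these values. A list of 10 stromal marker genes, most of whose counts were those of Col1a1 and Col1a2, summed to 313179 to 339642 normalized counts in young, 249305 to 265933 in old and 193441 to 226087 in rejuvenated old MSCs. Of the 10, 5 were called higher and 5 lower in young than in old MSCs, beside 41.6% higher and 44.1% lower among all genes tested. Thy1 was at 175 to 227 in young and 0 to 3.23 in old MSCs, and Eng at 147 to 175 in young and 7008 to 7681 in old MSCs. A list of 14 macrophage genes summed to 931 to 1048 in young, 17600 to 21917 in old and 17539 to 21337 in rejuvenated old MSCs, and in young MSCs 2 of the 14 were at 0 in all libraries and 8 had at most 3 reads in each. A list of 6 adipocyte genes summed to 370 to 467, 7375 to 7691 and 7466 to 9614 in the same order. Most of these counts were those of Pparg and Fabp4, which were called higher after co-culture (log2 fold changes 0.21 and 0.48). Plin1 was called lower (-0.70), and Adipoq (-0.63) was not called. A list of 5 endothelial genes summed to 6921 to 7301 in young, 36.6 to 66.0 in old and 45.6 to 420 in rejuvenated old MSCs (the highest in replicate 1), and in young MSCs nearly all of it was Cd34, at 6787 to 7191, with Pecam1 at 11.7 to 22.9 and Cdh5 at 0 to 4.05. Rejuvenated old replicate 1 stood apart, since 79 genes with a mean of at least 100 in young MSCs and at most 5 in every old library summed to 1247 in it and to 112 to 142 in the 5 others of that group. The 79 genes, chosen by these 2 groups, summed to 53390 to 55736 in young and 78.5 to 104 in old MSCs. Without replicate 1 of the rejuvenated old MSCs, 19 of the cholesterol genes were again called lower and 3 higher between rejuvenated old and old MSCs. In RNA from whole cultures, fewer cells of a type and less RNA per cell cannot be told apart.

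Transcripts of cholesterol genes were mostly lower after co-culture. Of the 31, 19 were lower and 3 higher in rejuvenated old than in old MSCs (limma on log2(normalized count + 1), all 3 groups in 1 fit, Benjamini-Hochberg adjusted p under 0.05 over 14353 genes), and 9 were not called. Over all genes tested, 20.6% were lower and 21% higher by the same rule. On the log2 scale the median change of the 31 was -0.23, against 0.01 over all genes tested. The lowest values were those of Srebf2 (-0.61), Cyp51 (-0.56), Abcg1 (-0.56), Hsd17b7 (-0.51) and Hmgcs1 (-0.49), and the highest that of Apoe (0.34). In 13 of the 31 all 6 rejuvenated old libraries lay below all 6 old libraries, and in 0 did they lie above, where 11.6% and 10.4% of all genes did. The 18 enzymes of synthesis among the members, added up, came to 16198 to 17250 normalized counts in the old libraries and 12733 to 14746 in the rejuvenated old libraries, with no overlap. The smallest sums after co-culture were those of replicates 6 (12733) and 5 (13362).

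**Figure D1:**
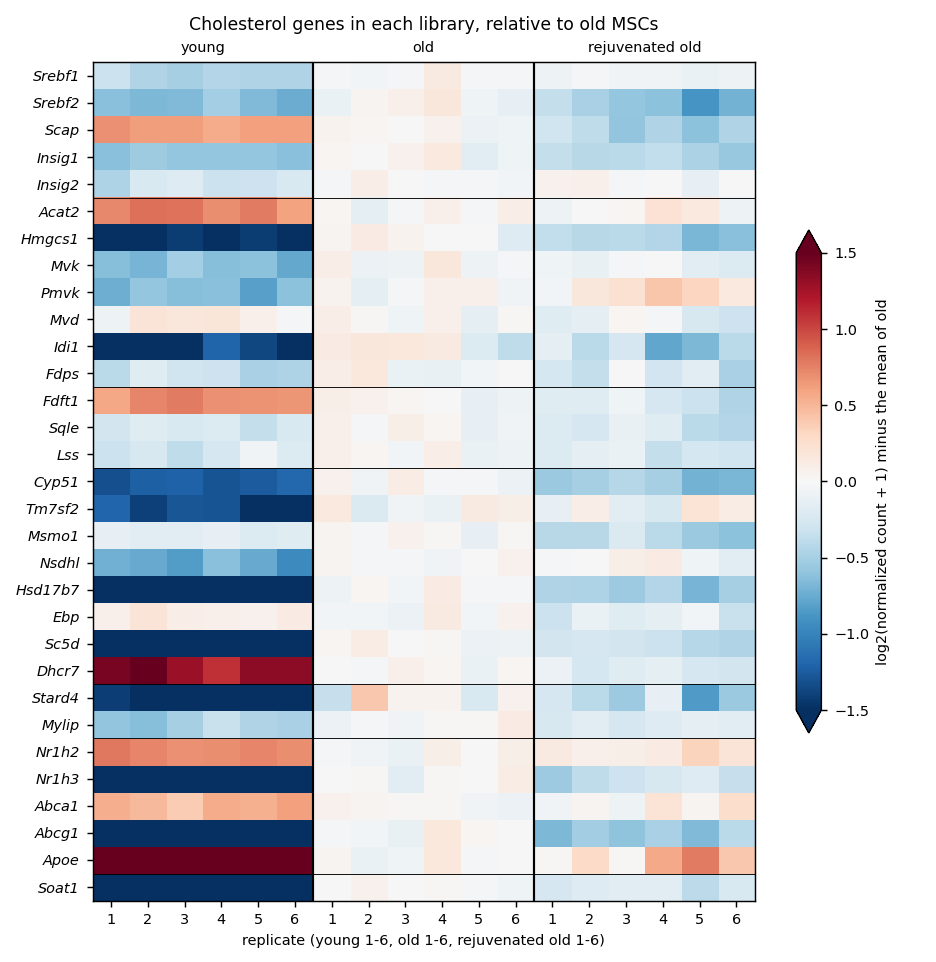
Each row is 1 cholesterol gene and each column 1 library (young, old and rejuvenated old replicates 1 to 6), coloured by log2(normalized count + 1) minus the mean of the 6 old libraries, with colours limited at -1.5 and 1.5. Rows are ordered by role, with thin lines between roles. Most rows are blue in the rejuvenated old columns. The young columns hold dark blue rows (among them Hmgcs1, Idi1, Hsd17b7, Sc5d, Stard4, Nr1h3, Abcg1, Soat1) beside red ones (Scap, Acat2, Fdft1, Dhcr7, Nr1h2, Abca1, Apoe).

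Young MSCs differed from old MSCs in more of these genes and by more, as they did over all genes tested. After co-culture the median absolute log2 fold change was 0.24 for the 31 and 0.15 over all genes tested. In young against old MSCs it was 0.68 and 0.60. There 22 were lower and 7 higher, beside 44.1% lower and 41.6% higher among all genes tested, and the median log2 fold change was -0.50 against -0.02. The 2 not called were Mvd and Ebp. All young libraries lay below all old libraries in 21 of the 31 and above them in 7, where 38.2% and 35.7% of all genes tested did so. The values ran from -5.11 for Abcg1 to 3.47 for Apoe. Synthesis enzymes added up to 11585 to 12320 normalized counts in young MSCs, below every rejuvenated old library. The largest differences between these sums came from Hsd17b7 (mean 111 in young and 1187 in rejuvenated old MSCs) and Sc5d (329 and 1250). With each enzyme's count divided by its exonic length, the sums of young and rejuvenated old libraries overlapped. They were 3323 to 3568 per kb in young and 3545 to 4078 in rejuvenated old MSCs. Of the 18 enzymes, 9 were higher and 6 lower in rejuvenated old than in young MSCs, where 44.1% and 41.5% of all genes were. Against young MSCs, 17 of the 31 were higher and 10 lower in rejuvenated old MSCs, beside 44.1% higher and 41.5% lower among all genes. Each pair of comparisons shares a group of libraries, so that their values are given side by side below and are not separate evidence of 1 direction.

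**Figure D2:**
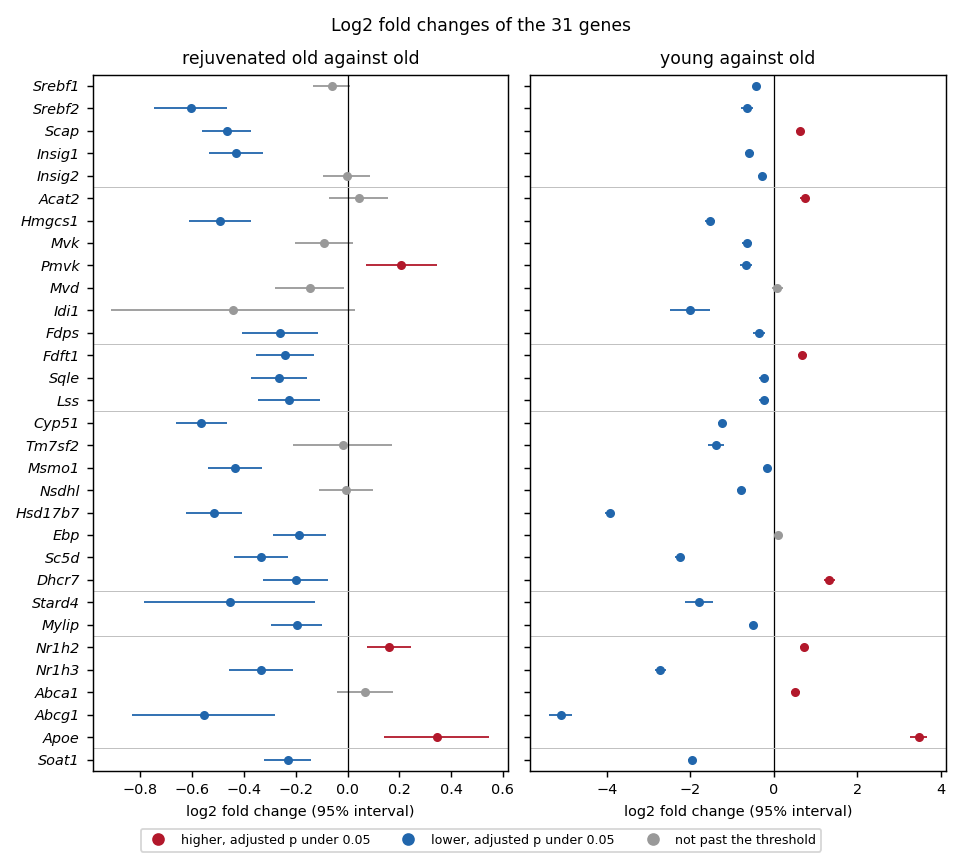
Log2 fold changes of the 31 genes (points) with 95% intervals (bars) from limma, for rejuvenated old against old MSCs on the left and young against old MSCs on the right, on axes of different width. Points are blue where lower, red where higher and grey where the adjusted p was 0.05 or more; 19 are blue on the left and 22 on the right.

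Promoter sequences were looked up because many of these genes are known targets of SREBP2, which binds sterol regulatory elements together with the factor NF-Y. RefSeq windows of 300 bases on GRCm38.p6 (mm10), from 250 before to 50 after an annotated start, matched 26 of the 31 genes, in 37 windows. Abcg1, Stard4, Fdft1, Fdps and Sqle had none. The core of the classical element, TCACNCCA on either strand, stood in a window of 4 of the 26 (Srebf2, Hmgcs1, Msmo1 and Apoe), against 4.97% of the 27025 genes with a window and 4.47% of those tested. The 9-letter form TCACNCCAC, which contains the core, was found in Hmgcs1 alone, against 1.44%. The NF-Y box CCAAT was found in 20 of the 26, against 41.1% of genes with a window and 42.7% of those tested. The GC box GGGCGG, a site for Sp1, was found in 22 of the 26, against 38.2% and 67.3%. The E-box CACGTG was found in 6, against 8.09% of genes with a window and 11.51% of those tested. The end of the core can run into an NF-Y box, which it did in none of the windows printed here. A match describes the letters and is not a measured site, and a window without a match says nothing about binding.

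The windows with the core are printed 5′ to 3′ on the strand of the gene, with that of Cyp51, which fell about as much as Srebf2 and has no core in its window. Capitals mark the core TCACNCCA and the NF-Y box CCAAT, which reads ATTGG on the opposite strand. Srebf2 is at chr15:82147019-82147318 (plus strand), Hmgcs1 at chr13:119690101-119690400 (plus strand), Msmo1 at chr8:64733529-64733828 (minus strand), Cyp51 at chr5:4104648-4104947 (minus strand) and Apoe at chr7:19699139-19699438 (minus strand). The core begins 162 bases before the start in Srebf2, 137 in Hmgcs1 and 177 in Msmo1.
Srebf2: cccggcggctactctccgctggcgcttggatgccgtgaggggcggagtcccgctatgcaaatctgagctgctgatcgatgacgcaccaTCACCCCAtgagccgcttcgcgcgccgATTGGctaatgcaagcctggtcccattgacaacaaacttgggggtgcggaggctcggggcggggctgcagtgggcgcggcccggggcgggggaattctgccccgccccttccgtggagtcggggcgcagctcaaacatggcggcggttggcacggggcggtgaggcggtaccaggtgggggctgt
Hmgcs1: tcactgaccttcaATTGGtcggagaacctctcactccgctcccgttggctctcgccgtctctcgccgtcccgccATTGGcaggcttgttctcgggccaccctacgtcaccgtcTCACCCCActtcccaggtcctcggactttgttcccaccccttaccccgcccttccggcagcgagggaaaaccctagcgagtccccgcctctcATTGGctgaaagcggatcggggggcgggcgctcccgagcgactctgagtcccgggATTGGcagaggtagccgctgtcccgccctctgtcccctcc
Msmo1: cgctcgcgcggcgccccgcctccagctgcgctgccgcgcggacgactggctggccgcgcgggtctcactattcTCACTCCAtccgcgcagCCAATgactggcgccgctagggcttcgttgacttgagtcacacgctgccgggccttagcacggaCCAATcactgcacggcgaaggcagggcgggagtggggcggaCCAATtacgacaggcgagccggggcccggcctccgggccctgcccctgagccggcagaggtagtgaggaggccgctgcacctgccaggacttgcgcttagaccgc
Cyp51: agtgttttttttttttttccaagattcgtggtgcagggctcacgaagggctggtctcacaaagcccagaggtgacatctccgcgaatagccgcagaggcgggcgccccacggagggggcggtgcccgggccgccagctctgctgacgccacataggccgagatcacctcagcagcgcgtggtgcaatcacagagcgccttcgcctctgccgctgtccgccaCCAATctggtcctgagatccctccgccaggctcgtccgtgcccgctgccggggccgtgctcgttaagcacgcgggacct
Apoe: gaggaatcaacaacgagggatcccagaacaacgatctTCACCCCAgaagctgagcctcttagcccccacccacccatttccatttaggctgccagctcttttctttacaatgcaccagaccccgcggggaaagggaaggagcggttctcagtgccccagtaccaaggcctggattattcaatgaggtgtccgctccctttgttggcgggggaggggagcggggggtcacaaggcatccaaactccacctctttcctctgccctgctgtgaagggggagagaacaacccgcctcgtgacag
The Apoe window is 1 of 3 for this gene, all of starts inside the annotated gene, and belongs to the start farthest upstream. Its core begins 213 bases before that start and has no NF-Y box beside it, whereas Srebf2 has 1 such box, Hmgcs1 has 4 and Msmo1 has 3.

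**Figure D3:**
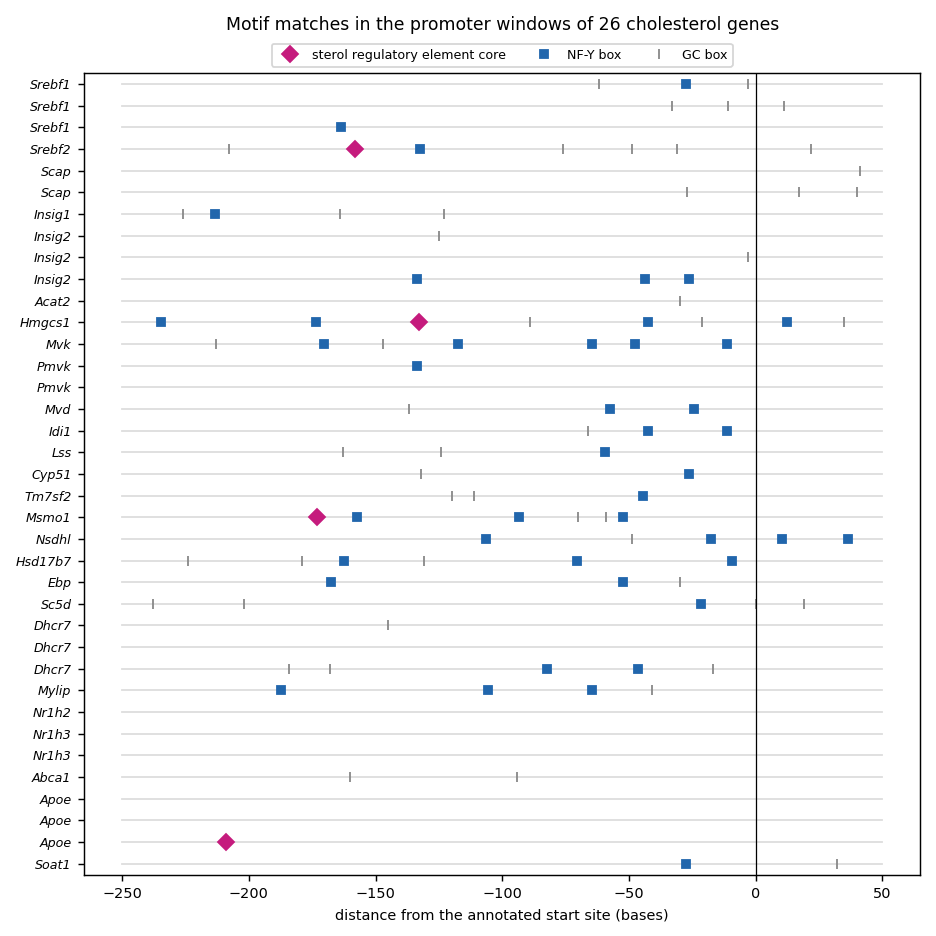
Positions of the sterol regulatory element core (diamonds), the NF-Y box (squares) and the GC box (ticks) in the 37 promoter windows of 26 cholesterol genes, as distance in bases from the annotated start. Each line is 1 window. Cores stand in 4 windows, all upstream of the start, while boxes for NF-Y appear in windows of 20 genes.

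Counts by role, here and below, are to be read against the 20.6% lower and 21% higher among all genes tested after co-culture. Nothing particular to a role is read from such small groups. Of the 5 regulators, 3 were lower after co-culture and 2 were not called. Srebf2 encodes SREBP2, the main activator of the synthesis genes, and lies at chr15:82147269-82205379. Its lowest, median and highest normalized counts were 1055, 1123 and 1245 in young, 1624, 1763 and 1999.7 in old and 958, 1175 and 1383 in rejuvenated old MSCs. All 6 old libraries were above the 12 others, and young and rejuvenated old libraries overlapped. The log2 fold change against old MSCs was -0.61 (95% interval -0.75 to -0.46, adjusted p = 2.7e-07) in rejuvenated old MSCs. In young MSCs it was -0.65 (adjusted p = 7.33e-09). Between rejuvenated old and young MSCs it was 0.04 (-0.10 to 0.18, adjusted p = 0.573). Rejuvenated old replicate 5 held the lowest of all 18 values.

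Insig1 encodes a retention protein that is itself an SREBP target, so that its transcript is often read as a gauge of SREBP activity. It gave 435, 450 and 467 normalized counts (lowest, median, highest) in young, 599, 681 and 745 in old and 456, 507 and 525 in rejuvenated old MSCs. Here too the old libraries stood above the 12 others. Co-culture gave a log2 fold change of -0.43 (-0.54 to -0.33, adjusted p = 4.57e-07), and young MSCs stood at -0.59 against old MSCs (adjusted p = 2.04e-10). Rejuvenated old MSCs remained 0.16 above young MSCs (adjusted p = 0.0066, and 0.204 with all libraries scaled to the same total).

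Scap encodes the escort protein of both SREBPs and moved away from the young level. It had 3589, 3755 and 3936 normalized counts in young, 2288, 2471 and 2552 in old and 1587, 1781 and 1989.5 in rejuvenated old MSCs, so that the 3 groups followed each other without overlap. It fell by 0.47 on the log2 scale after co-culture (-0.56 to -0.37, adjusted p = 3.44e-08) and was 0.62 higher in young than in old MSCs (adjusted p = 1.3e-11). Srebf1, which encodes the SREBP1 forms that drive fatty acid synthesis and some cholesterol genes, was 1973 to 2074 in rejuvenated old and 2046 to 2320 in old MSCs (log2 fold change -0.06, -0.13 to 0.01, adjusted p = 0.16). Insig2, the second retention gene, stood at 1281 to 1477 and 1360 to 1496 (-0.0036, -0.09 to 0.09, adjusted p = 0.957). In young MSCs both were below all old libraries, with log2 fold changes of -0.44 for Srebf1 and -0.29 for Insig2.

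**Figure D4:**
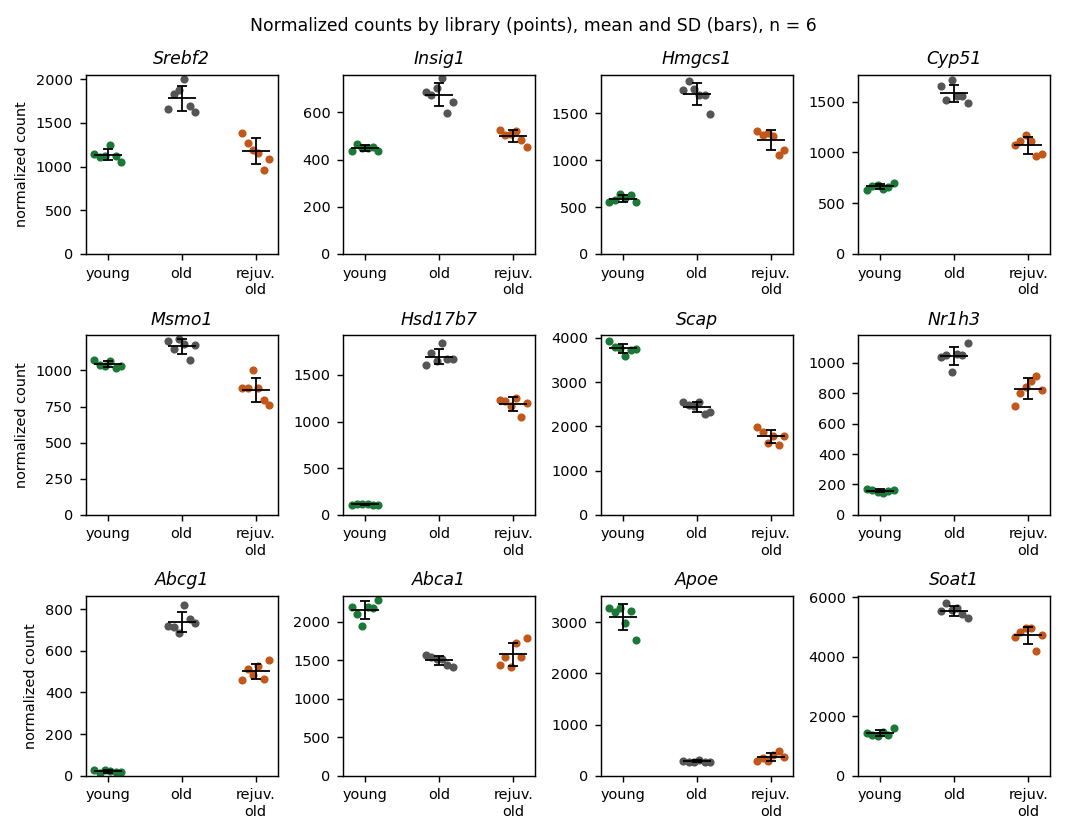
Normalized counts of 12 cholesterol genes in every library (points) with the mean and SD of each group of 6 (bars), on linear axes that start at 0. The rejuvenated old points lie below all old points for Srebf2, Insig1, Hmgcs1, Cyp51, Msmo1, Hsd17b7, Scap, Nr1h3, Abcg1 and Soat1, and overlap them for Abca1, while Apoe is about 11.1 times higher in young than in old MSCs.

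Of the 7 genes for the steps from acetyl-CoA to farnesyl diphosphate, 2 were lower, 1 higher and 4 not called after co-culture. Among all genes tested, 20.6% were lower and 21% higher. Hmgcs1 encodes the cytosolic HMG-CoA synthase, lies at chr13:119690351-119708260 and has both core and NF-Y boxes in the window printed above. Its normalized counts were 554, 582 and 636 in young, 1497, 1723 and 1851 in old and 1058, 1264 and 1317 in rejuvenated old MSCs, with no overlap among groups. Its log2 fold change was -0.49 after co-culture (-0.61 to -0.37, adjusted p = 5.32e-07), -1.53 in young against old MSCs (adjusted p = 5.13e-17) and 1.04 in rejuvenated old against young MSCs (adjusted p = 8.42e-14).

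Fdps, which makes farnesyl diphosphate, gave 547, 597 and 676 normalized counts in young, 711, 758 and 854 in old and 546, 634 and 769 in rejuvenated old MSCs, and some old and rejuvenated old libraries overlapped. Its log2 fold changes were -0.26 (adjusted p = 0.00471) and -0.36 (adjusted p = 5.88e-05). Fdps shares 26.7% of its exonic length with the predicted gene Gm43738 on the same strand, and the division of reads between them is uncertain. Pmvk, the phosphomevalonate kinase gene, was the 1 enzyme of the 18 that rose, from 466, 522 and 542 in old to 499, 590 and 689 in rejuvenated old MSCs, with overlap (0.21, 0.07 to 0.34, adjusted p = 0.0143). Young MSCs had less of it, at 291 to 343 (-0.67, adjusted p = 2.23e-09).

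The other 4 genes of these steps were not called after co-culture. Acat2, a cytosolic thiolase, had a log2 fold change of 0.04 (-0.07 to 0.16), the mevalonate kinase gene Mvk had -0.09 (-0.20 to 0.02) and the decarboxylase gene Mvd had -0.15 (-0.28 to -0.01, adjusted p = 0.0729). Idi1, the isomerase that makes dimethylallyl diphosphate, was scarce, at 34.6 to 51.2 normalized counts in old and 26.1 to 41.2 in rejuvenated old MSCs, and its value of -0.44 was imprecise (-0.91 to 0.03, adjusted p = 0.125). On the recovered reads, edgeR's quasi-likelihood test gave Idi1 an adjusted p of 0.0472 and DESeq2 one of 0.0374. Compared with old MSCs, young MSCs had lower Idi1 (-2.01) and Mvk (-0.64), higher Acat2 (0.74), and a Mvd value of 0.09 that was not called.

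All 3 genes of the squalene and lanosterol steps were lower after co-culture, each by a similar and modest amount. Sqle, the squalene epoxidase and a rate-limiting step, gave 1022, 1115 and 1149 normalized counts in young, 1199, 1310 and 1390 in old and 966, 1114 and 1211 in rejuvenated old MSCs, and a single stretch from 1199 to 1211 was common to the old and rejuvenated old libraries. Its log2 fold changes were -0.26 (adjusted p = 0.000263) and -0.25 (adjusted p = 0.000134). Lss, the lanosterol synthase, had 445, 488 and 557 in young, 542, 578 and 621 in old and 452, 493 and 538 in rejuvenated old MSCs, with all rejuvenated old below all old libraries (-0.23, adjusted p = 0.00298). Neither of these was called between rejuvenated old and young MSCs, where Sqle had -0.02 (-0.13 to 0.09) and Lss had 0.01 (-0.10 to 0.13).

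Fdft1, the squalene synthase, was higher in young than in old MSCs. It had 1360, 1455 and 1559 normalized counts in young, 835, 922 and 969 in old and 662, 782 and 869 in rejuvenated old MSCs, with log2 fold changes against old of -0.24 (adjusted p = 0.001) for rejuvenated old and 0.68 (adjusted p = 4.78e-11) for young MSCs. Its exons share 774 bases, 18.3% of its exonic length, with the cathepsin gene Ctsb on the opposite strand. Ctsb had 46321 to 50373 normalized counts in old and 30293 to 34101 in rejuvenated old MSCs (log2 fold change -0.59) and 0.37 in young against old MSCs. The strand setting of the counting is not stated, and how much of the Fdft1 count came from Ctsb was not tested.

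Of the 8 genes from lanosterol to cholesterol, 6 were lower after co-culture and 2 were not called. Cyp51, the lanosterol demethylase at chr5:4080674-4104697, had 632, 668 and 698 normalized counts in young, 1485, 1558 and 1713 in old and 962, 1093 and 1176 in rejuvenated old MSCs. The 3 groups did not overlap. The log2 fold changes were -0.56 (-0.66 to -0.46, adjusted p = 4.15e-09) for rejuvenated old and -1.25 (adjusted p = 7.13e-17) for young against old, and 0.68 (adjusted p = 6.3e-12) in rejuvenated old against young MSCs.

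Hsd17b7, the 3-ketosteroid reductase of the pathway at chr1:169949535-169969242, was scarce in young MSCs. It had 103, 110 and 119 normalized counts in young, 1612, 1671 and 1838 in old and 1048, 1213 and 1249 in rejuvenated old MSCs, again without overlap. It fell by 0.51 on the log2 scale after co-culture (adjusted p = 5.14e-08), while young MSCs stood at -3.93 against old MSCs (adjusted p = 1.82e-25), so that rejuvenated old MSCs still held 10.6 times the young level.

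Msmo1, the C4 methyl sterol oxidase and 1 of the genes with a core in its window, was lowest after co-culture. Its normalized counts were 1016, 1035 and 1071 in young, 1072, 1181 and 1218 in old and 764, 876 and 1005 in rejuvenated old MSCs, and young, old and rejuvenated old libraries did not overlap. It fell by 0.44 on the log2 scale after co-culture (adjusted p = 3.84e-07) and then stood at -0.27 against young MSCs (adjusted p = 2.93e-05), whereas young MSCs were -0.16 against old MSCs (adjusted p = 0.00488, and 0.0983 with all libraries scaled to the same total). Sc5d, the lathosterol oxidase, had 295, 330 and 365 in young, 1483, 1587 and 1696 in old and 1152, 1276 and 1324 in rejuvenated old MSCs, without overlap, and log2 fold changes of -0.33 (adjusted p = 1.64e-05) and -2.26 (adjusted p = 2.41e-21).

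The other 4 genes of these steps changed less or were not called. Ebp, the sterol isomerase, fell by 0.19 (adjusted p = 0.00383), and Dhcr7, the reductase that makes cholesterol from 7-dehydrocholesterol, fell by 0.20 (adjusted p = 0.0105). Tm7sf2, a sterol C14 reductase, was -0.02 (-0.21 to 0.17) and Nsdhl, the C4 decarboxylase, was -0.01 (-0.11 to 0.10), neither called. In young MSCs, Dhcr7 was 1.33 higher than in old MSCs, with 585 to 775 normalized counts against 255 to 288. Tm7sf2 (-1.38) and Nsdhl (-0.77) were lower in young MSCs, and Ebp (0.10, adjusted p = 0.0504) was not called, although it was called higher under 13 of 30 alternatives, among them edgeR (adjusted p = 0.0393) and DESeq2 (0.0292) on the recovered reads, and lay at -0.05 when measured from the median of its chromosome. Exons of another annotated gene cover 12.1% of Tm7sf2 (Vps51, same strand), 13.2% of Scap (5830462I19Rik) and 12.1% of Hmgcs1 (Gm48342), the last 2 on the opposite strand, so that part of these counts is uncertain.

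Both genes for sterol transport and receptor turnover were lower after co-culture. Stard4, a carrier of free cholesterol between membranes and an SREBP target, was scarce, with 23.9, 37.1 and 45.7 normalized counts in young, 96.8, 127 and 163 in old and 68, 88.1 and 113 in rejuvenated old MSCs, and old and rejuvenated old libraries overlapped. Its log2 fold change was -0.46 (-0.78 to -0.13, adjusted p = 0.0245), which gave an adjusted p of 0.0708 without old replicate 2 and 0.0683 without rejuvenated old replicate 5. Mylip, the LXR-induced ubiquitin ligase that sends lipoprotein receptors for degradation, had 533, 593 and 661 in young, 784, 832 and 905 in old and 697, 732 and 750 in rejuvenated old MSCs, without overlap, and log2 fold changes of -0.20 (adjusted p = 0.00219) and -0.50 (adjusted p = 1.57e-09).

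The 5 genes of LXR and efflux did not move together. Abcg1, which passes cholesterol to HDL, is at chr17:31057694-31117984 and differed more between young and old MSCs than any other member. It had 12, 21.4 and 28.3 normalized counts in young, 684, 728 and 822 in old and 460, 500 and 556 in rejuvenated old MSCs. The groups did not overlap, and log2 fold changes against old were -0.56 (-0.83 to -0.28, adjusted p = 0.00183) for rejuvenated old and -5.11 (adjusted p = 3.8e-20) for young MSCs. Nr1h3, which encodes LXRα, had 145, 160 and 171 in young, 939, 1052 and 1132 in old and 714, 834 and 915 in rejuvenated old MSCs, without overlap, and values of -0.33 (adjusted p = 0.000105) and -2.72 (adjusted p = 1.57e-21).

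Nr1h2, which encodes LXRβ, and Apoe rose. Nr1h2 had 1677 to 1902 normalized counts in old and 1895 to 2260 in rejuvenated old MSCs (0.16, adjusted p = 0.00329) and 2887 to 3097 in young MSCs (0.72 against old, adjusted p = 1.03e-13). Apoe, at chr7:19696244-19701310, had 2652, 3214 and 3288 in young, 261, 275 and 312 in old and 282, 354 and 478 in rejuvenated old MSCs. Old and rejuvenated old libraries overlapped, and the highest after co-culture was replicate 5. Against old MSCs, its log2 fold change was 0.34 (0.14 to 0.55, adjusted p = 0.00717) with co-culture and 3.47 (adjusted p = 1.79e-19) for young MSCs. Abca1, the exporter of cholesterol to lipid-poor apolipoprotein, was 0.07 (-0.04 to 0.18, adjusted p = 0.312) after co-culture, with 1417 to 1793 against 1416 to 1574 normalized counts, and 0.52 higher in young than in old MSCs.

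Soat1, the enzyme that esterifies cholesterol for storage, had 1323, 1394 and 1595 normalized counts in young, 5311, 5555 and 5815 in old and 4212, 4787 and 4986 in rejuvenated old MSCs, without overlap. Its log2 fold changes were -0.23 (adjusted p = 0.000197) and -1.97 (adjusted p = 2.04e-21). Macrophages are known to express Abcg1, Nr1h3 and Soat1, and also Apoe and Abca1. The summed macrophage markers given above were lower in all young than in all old libraries. Of the list, Ptprc and Adgre1 were at 0 in all young libraries, against 162 to 208 and 243 to 333 in old MSCs. Young MSCs kept Cd68 at 395 to 480, Cd14 at 192 to 264 and Csf1r at 101 to 134 normalized counts. By flow cytometry the study found MSCs of both ages negative for CD45, the protein of Ptprc. It found both negative for CD34 too, where Cd34 RNA was at 6787 to 7191 in young MSCs. Flow cytometry measured surface protein on MSC preparations, whereas the values here are RNA of the sequenced cultures. Like the summed markers, Abcg1, Nr1h3 and Soat1 were lower in young than in old MSCs, whereas Apoe and Abca1 were higher. The part of the cells with these markers in the differences between young and old MSCs was not tested. Between rejuvenated old and old MSCs the summed markers overlapped, and of the 14 genes Itgam was called higher (0.48) and Cd68 lower (-0.32).

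Per kilobase of exon (GENCODE M21), the level in old MSCs was highest for Ebp, at 659 normalized counts per kb, followed by Soat1 (567) and Nr1h2 (535). The lowest were Idi1 (13.1) and Stard4 (22.3). In young MSCs the order began with Apoe (1452), Nr1h2 (882) and Ebp (708) and ended with Idi1 (3.27) and Abcg1 (2.90), and in rejuvenated old MSCs with Nr1h2 (598) and Ebp (580) at the top and Idi1 (9.57) at the bottom. LXRβ transcripts were above those of LXRα in every group on this scale, at 882 and 62.9 per kb in young, 535 and 416 in old and 598 and 330 in rejuvenated old MSCs.

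On some chromosomes most genes differed in the same direction between young and old MSCs. For chromosome 1 the median over all genes tested was -0.69 (log2, young against old), and for chromosome 7 it was 0.61. Chromosome 1 holds Soat1, Insig2 and Hsd17b7, and chromosome 7 holds Apoe, Nr1h2 and Dhcr7. Measured from its chromosome, Hsd17b7 was at -3.24, Soat1 at -1.28, Apoe at 2.86, Dhcr7 at 0.72 and Nr1h2 at 0.11, and Insig2 turned from -0.29 to 0.40. In rejuvenated old against old MSCs the chromosome medians ran from -0.04 to 0.06, and no fold change of a called member moved by more than 0.06 when measured from its chromosome.

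**Figure D5:**
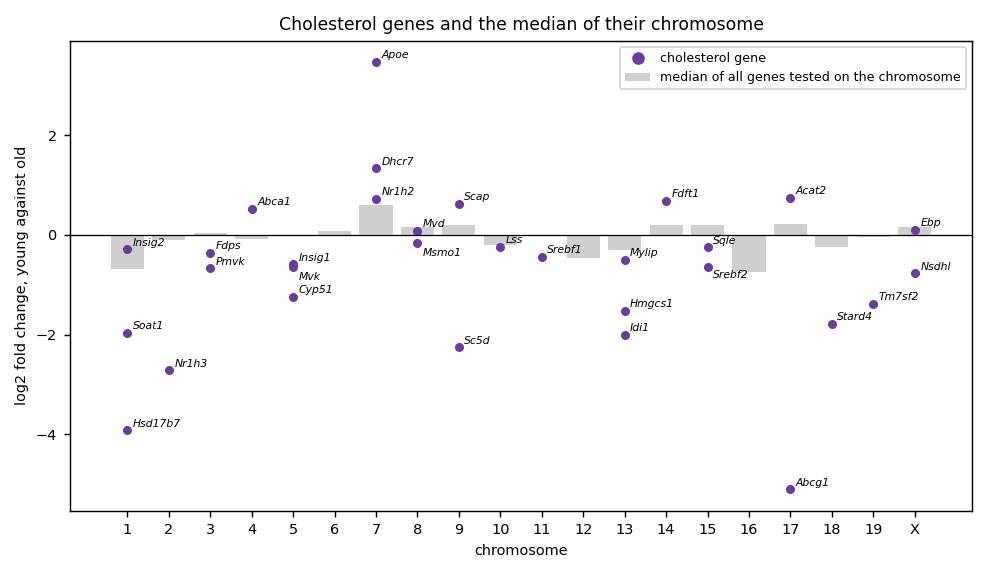
Log2 fold change in young against old MSCs of the 31 cholesterol genes (points) by chromosome, with the median of all genes tested on that chromosome (bars). The medians farthest from 0 are those of chromosomes 1, 12 and 16 below and 7 above, and smaller medians of either sign stand on the others. Insig2 lies above the median of its chromosome, while Hsd17b7 and Soat1 lie well below it.

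Other genes of the pathway were taken from 4 lists, to be read against the 20.6% lower and 21% higher among all genes tested after co-culture. Nothing particular to these small lists is read from their counts. Of 8 genes for SREBP processing and INSIG turnover, 2 were lower and 1 higher after co-culture, with Mbtps1, the site-1 protease that makes the first cut in SREBPs, at -0.30 (adjusted p = 9.24e-08; 5021 to 5733 normalized counts after co-culture against 6417 to 6840) and Erlin2, an endoplasmic reticulum scaffold, at 0.12 (adjusted p = 0.00124). Of 9 genes for the branches to isoprenoids, dolichol and ubiquinone, 2 were higher and 7 were not called, with the largest value for Coq2 of ubiquinone synthesis at 0.28 (adjusted p = 1.7e-05).

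Of 15 genes for lipoprotein receptors and sterol transport inside the cell, 7 were lower and 3 higher. Vldlr, a lipoprotein receptor, had 87.1 to 164 normalized counts in old, 390 to 689 in rejuvenated old and 4745 to 5759 in young MSCs, and its 1.79 after co-culture (adjusted p = 3.4e-10) was the largest rise in these lists. Lrp8, a receptor of the same family, went the other way, from 88.2 to 126 in old to 31.1 to 92.7 in rejuvenated old MSCs (-1.28, adjusted p = 8.61e-06), with 151 to 216 in young MSCs. Of 12 genes for efflux partners and oxysterols, 10 could be tested, since Apoc1 and Apoa1 were under the limit, and 3 were lower and 1 higher. Nceh1, which hydrolyses cholesterol esters, was at -0.79 (adjusted p = 1.69e-06). Soat2, the second esterifying enzyme, was the gene called higher (0.93, adjusted p = 0.00554). It had 5.74 ± 2.85 normalized counts (SD, n = 6) in old and 11.7 ± 5.11 in rejuvenated old MSCs. Old and rejuvenated old libraries overlapped, since the lowest after co-culture (7.45) lay below the highest old value. Both groups were far below the 116 to 196 of young MSCs. Soat2 passed the limit for testing (mean over all libraries 60.6) through the young libraries, and its mean in old MSCs was under that limit. At such low counts its rise is uncertain.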

How the data were processed

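RNA sequencing libraries of 18 cultures (6 young, 6 old, 6 rejuvenated old MSCs; TruSeq Stranded mRNA kit) were analysed. The authors used HISAT2 for alignment to mm10, StringTie and featureCounts for assembly and counting, and DESeq2 for normalization, as their methods and the submitters' processing notes state; versions, annotation and strand setting were not given in the sources used here. The deposited signal is a gene's read count divided by 1 size factor per library. Whole reads were recovered for 100% of values (tolerance 0.01 read), which gave the depths above and the input of the count tests.

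The tests used limma 3.58.1 in R 4.3.3 on log2(value + 1) (all groups in 1 fit, prior variance following the mean, two-sided), over the 14353 genes whose mean reached 10. Fold changes on this scale understate those of low genes. Benjamini-Hochberg adjusted p under 0.05 was called. Tests were tried on simulated data with the same spread for every gene, unlike these data, and no result here rests on that trial. No 2 libraries of a group agreed within sampling noise (chi-square per degree of freedom of at least 2.57).

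The members, lists, markers and tests were chosen with earlier results of these data known. Library values are given for up to 3 called members per role with the largest change after co-culture, and for members whose old libraries lay outside the 12 others; from each further list, the called gene with the largest change in each direction is named, and Ctsb, Gm43738, Vps51, Itgam, Cd68 and the genes of sex were named after their values were seen. Alternatives covered the pseudocount, filter, scaling, 2-group fits, 1 prior variance, a replicate block, edgeR 4.0.16, DESeq2 1.42.0, a stricter threshold, the chromosome median and each library left out. Positions are from RefSeq GRCm38.p6 and exon lengths from GENCODE M21. Single marker genes were also named after their values were seen. No p was adjusted over the list alone.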

Additional observations from a re-analysis of the deposited data

Results flagged for a closer look

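In 3 of the 93 groups of 6 libraries examined, 1 library stood far from the other 5 by Dixon's test, where chance gives about 1 in 20 groups. Srebf1 in young replicate 1 had 1690 normalized counts, and the nearest library had 1562. Srebf1 in old replicate 4 had 2320, and the nearest had 2088. Insig2 in old replicate 2 had 1496, and the nearest had 1407.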

How the results depend on the processing

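Every count of cholesterol genes called lower or higher stayed within 1.5 times its value under all alternatives run. Without leaving out libraries, 17 to 20 were lower and 2 to 3 higher in rejuvenated old against old MSCs, 21 to 22 and 7 to 9 in young against old MSCs, and 10 to 11 and 16 to 17 in rejuvenated old against young MSCs. With each library left out in turn these were 18 to 20 and 3 to 3, 22 to 22 and 7 to 8, and 10 to 10 and 17 to 17.

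With the replicate number as a block, the counts were 19 lower and 3 higher after co-culture, 22 and 7 in young against old MSCs, and 10 and 17 in rejuvenated old against young MSCs. Same-numbered libraries were not treated as pairs, since the labels name none. Their deviations from the group means correlated at -0.152 to 0.0736, and 0 libraries correlated best with their own number. Such correlations cannot show whether the cultures shared donors or batches.

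Measured from the chromosome median, 3 called values changed sign. Insig2 went from -0.29 to 0.40 in young against old and from 0.29 to -0.41 in rejuvenated old against young MSCs, where Mylip went from 0.30 to -0.0019. Values that were not called also changed sign. Insig2 after co-culture was 0.0017 with the 75th percentile scaling. In rejuvenated old against young MSCs, scaling to the same total gave -0.0488 for Srebf2 and -0.0753 for Lss, and Lss was -0.0196 with the 75th percentile scaling and -0.0023 with DESeq2. With a library left out, the ranges were -0.0204 to 0.0206 for Insig2, -0.0311 to 0.0247 for Nsdhl and -0.0629 to 0.0249 for Tm7sf2 after co-culture, and -0.0129 to 0.0522 for Lss, -0.05 to 0.0152 for Sqle and -0.0078 to 0.0979 for Srebf2 in rejuvenated old against young MSCs. The cause was not tested. Measured from the chromosome median, 37 further values in the comparisons with young MSCs moved by more than 1 SD of their group.

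At a threshold of 0.01, Pmvk, Dhcr7 and Stard4 lost their calls after co-culture, and the counts with young MSCs were as before. At the threshold of 0.05, 14 calls of single genes were gained, most of them Ebp in young against old MSCs and Idi1 after co-culture, and 2 lost with another setting (Msmo1 in young against old and Insig1 in rejuvenated old against young MSCs, both with the same total), and 9 were gained and 2 lost with a library left out, the latter both of Stard4 after co-culture. The widest intervals after co-culture were those of Idi1 and Stard4, which had the lowest mean normalized counts of the 31 genes in old MSCs. For Idi1 the fit of 2 groups gave an adjusted p of 0.025 where that of all groups gave 0.125.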
